A study of Mus musculus with 14 samples.

Results

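Penk, Tac1 and Pdyn encode 3 neuropeptide precursors of the striatum. Penk (older symbol Penk1) encodes proenkephalin, Tac1 the common precursor of substance P and neurokinin A, and Pdyn prodynorphin. They were chosen by the gene symbol of the array's probe sets, which gave 1 probe set for each gene, 3 of the 22626 tested, and 3 of the 12393 genes with a probe set of 1 symbol.

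The striatum consists mainly of inhibitory spiny projection neurons. Those of the indirect pathway, which carry dopamine D2 receptors and project to the external globus pallidus, make enkephalin, whereas those of the direct pathway, which carry dopamine D1 receptors and project to the internal pallidus and substantia nigra, make substance P and dynorphin. The precursors are cut by prohormone convertases in the secretory pathway, stored in dense core granules and released to act on opioid and neurokinin receptors, and in Huntington disease the loss of enkephalin from pallidal terminals is a known early feature.

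Expression was measured with 1-colour Affymetrix arrays in total RNA of striatum from 6-week-old mice on a CBAxC57BL/6 background. R6/2 mice, a model of Huntington disease, express exon 1 of human HTT with an expanded CAG repeat from the human HTT promoter, and were set against wild-type mice. Mice of both genotypes had been given saline 30 to 60 minutes before they were killed, since they were the controls of a pair of drug studies. Sample titles began with M.C (4 R6/2 and 4 wild-type arrays, replicates 1 to 4 of each) or with Mith (3 R6/2 and 3 wild-type arrays, replicates 5 to 7 of each), and these beginnings are called cohorts here. The sources used here do not state what else set the cohorts apart. Whether each array came from its own animal is not stated in the labels, so every p-value measures the spread between arrays, which may be partly technical. Levels are log2 probe set signals, with arrays shifted to share a median, and a change is R6/2 minus wild-type on that scale.

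Cyclic AMP response elements (TGACGTCA, or the core CGTCA), bound by Creb1, are a known control of peptide precursor genes, and the regions upstream of the start sites are shown for that reason. A RefSeq promoter (mouse build GRCm38.p6) was matched for 2 of the 3 genes. The 250 bases before the RefSeq start of Tac1 lie at chr6:7554811-7555060 on the plus strand, and those of Pdyn at chr2:129699939-129700188 on the minus strand. Both are written 5′ to 3′ on the strand of the gene, with CGTCA, searched on both strands, in capitals.
Tac1: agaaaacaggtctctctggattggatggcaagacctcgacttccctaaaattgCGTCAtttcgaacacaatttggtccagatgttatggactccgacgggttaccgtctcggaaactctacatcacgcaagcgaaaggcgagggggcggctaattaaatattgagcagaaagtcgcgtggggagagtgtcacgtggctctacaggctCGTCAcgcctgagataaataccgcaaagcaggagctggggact
Pdyn: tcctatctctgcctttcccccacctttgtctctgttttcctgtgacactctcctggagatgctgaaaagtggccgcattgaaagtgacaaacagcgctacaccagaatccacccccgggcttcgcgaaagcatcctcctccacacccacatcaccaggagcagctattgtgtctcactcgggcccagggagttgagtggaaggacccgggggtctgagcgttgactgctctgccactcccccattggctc
The Tac1 window held 2 CGTCA cores, beginning at positions -197 and -43 from the start site, and the more distant of them formed TGCGTCA, a near match of the full element. The Pdyn window held 0, as did a second RefSeq start window of Pdyn, and TGACGTCA was in none of the 3 windows. Among 32851 RefSeq promoter windows of this length, 17.8% held CGTCA, 1.7% held TGCGTCA and 1.5% held TGACGTCA on either strand. A match describes letters only, and a window without one says nothing about the factor.

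Penk, the enkephalin precursor, was lower in R6/2 striatum by a large amount. Its probe set, 1427038_at on chromosome 4, was among the brightest, with a mean of 11.44 that exceeded 99.3% of probe sets. In the M.C cohort Penk read 10.62, 11, 11.04 and 11.16 on the R6/2 arrays, against 12.19, 11.94, 12.10 and 12.12 on the wild-type arrays. In the Mith cohort it read 11.01, 11.13 and 10.98 on the R6/2 arrays, against 11.34, 11.83 and 11.65 on the wild-type arrays. All 7 R6/2 arrays lay below all 7 wild-type arrays, across cohorts as well as within them. Of all probe sets 0.389% showed that separation across the 14 arrays, 1.05% within both cohorts, 6.33% within M.C and 6.34% within Mith. In whole tissue, fewer cells of a type and less RNA per cell cannot be told apart.

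In the M.C cohort R6/2 Penk signal was 45.7% of wild-type, a change of -1.13 ± 0.11 (SE, 4 arrays per genotype, 95% interval -1.37 to -0.89), with limma adjusted p = 1.22e-04. Of all probe sets 3.21% were called in that cohort, a call being a limma p under 0.05 after Benjamini-Hochberg adjustment for 22626 tests. In the Mith cohort it was 67.5% of wild-type, a change of -0.57 ± 0.13 (SE, 3 arrays per genotype, 95% interval -0.85 to -0.29), which did not pass (limma adjusted p = 0.140) where 0.0221% of probe sets were called. Without wild-type replicate 5, the lowest wild-type array, the Mith change was -0.70 and passed with limma adjusted p = 0.0295. In the other 13 fits with 1 array left out the Mith change did not pass, with limma adjusted p from 0.0806 to 0.536. Over both cohorts 2.55% of probe sets were called, and Penk, at -0.89, had the 5th smallest p of all. It passed in each of the 14 fits with 1 array left out, where the change ran from -0.97 to -0.81.

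The 2 wild-type groups of Penk were further apart than the 2 R6/2 groups. Mean levels in increasing order were 10.96 ± 0.23 in R6/2 M.C, 11.04 ± 0.08 in R6/2 Mith, 11.61 ± 0.25 in wild-type Mith and 12.09 ± 0.11 in wild-type M.C (SD, n = 4 for M.C and 3 for Mith). The R6/2 groups did not differ beyond their spread, with M.C minus Mith at -0.08 and limma adjusted p = 0.656, where 24.7% of probe sets were called. Between the wild-type groups Penk was higher in M.C by 0.48 ± 0.12, limma adjusted p = 0.0190, where 11.8% of probe sets were called. The genotype change in M.C minus that in Mith was -0.56 ± 0.17 (limma interaction, unadjusted p = 0.00523), and the adjusted p was 0.352. No probe set passed that interaction (0.00% of 22626, against 2213 at an unadjusted p under 0.05 in limma).

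**Figure D1:**
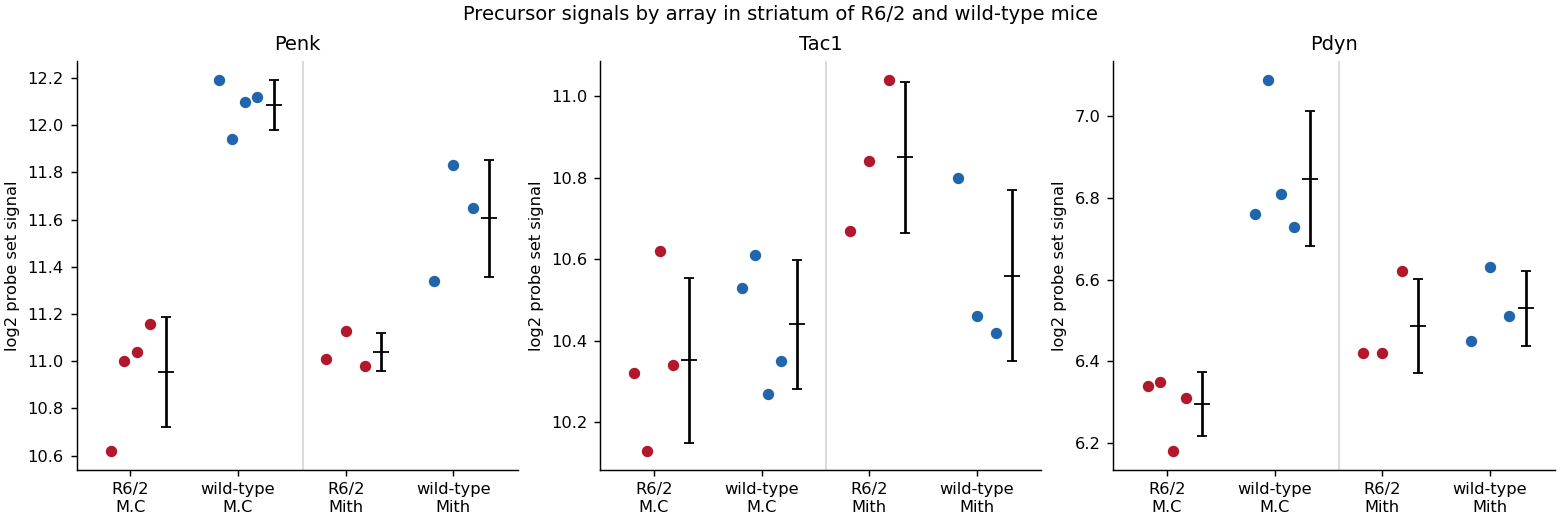
Log2 signal of Penk, Tac1 and Pdyn on each array (vertical axis) in R6/2 (red) and wild-type (blue) striatum of the M.C and Mith cohorts, with bars for mean and SD. The R6/2 Penk arrays sit between 10.62 and 11.16, below every wild-type array, while Tac1 overlaps in both cohorts and Pdyn separates in M.C alone.

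Tac1, the substance P precursor, did not pass the test of genotype in either cohort or over both. Its probe set, 1416783_at on chromosome 6, had a mean of 10.53, above 97.7% of probe sets. In the M.C cohort Tac1 read 10.32, 10.13, 10.62 and 10.34 on the R6/2 arrays, against 10.53, 10.61, 10.27 and 10.35 on the wild-type arrays. In the Mith cohort it read 10.67, 10.84 and 11.04 on the R6/2 arrays, against 10.80, 10.46 and 10.42 on the wild-type arrays. The genotypes overlapped in both cohorts, and in Mith the highest array was an R6/2 array and the lowest a wild-type one.

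The intervals bound what these arrays leave possible for Tac1. Over both cohorts the 95% interval of the change ran from -0.13 to 0.28 around 0.07. In M.C the estimate was 93.9% of wild-type, with an interval from -0.34 to 0.16 and limma adjusted p = 0.747, and it changed sign to 0.06 after quantile normalization. In Mith it was 122.4% of wild-type, with an interval from 100.3% to 149.3%, so that the unadjusted limma p was 0.0471 and the adjusted p 0.505. The change in M.C minus that in Mith was -0.38 ± 0.18 (limma interaction, unadjusted p = 0.0487), and its adjusted p was 0.507.

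Tac1 passed the test between the cohorts, as many probe sets did. Mean levels were 10.35 ± 0.20 in R6/2 M.C against 10.44 ± 0.16 in wild-type M.C, and 10.85 ± 0.19 in R6/2 Mith against 10.56 ± 0.21 in wild-type Mith (SD, n = 4 for M.C and 3 for Mith). Lowest was R6/2 M.C and highest R6/2 Mith, with both wild-type groups between them. With genotype as a term M.C was lower than Mith by -0.31 ± 0.10 (limma adjusted p = 0.0242), where 32.3% of probe sets were called. Between the R6/2 groups that difference was -0.50 ± 0.13 with limma adjusted p = 0.00975, where 24.7% of probe sets were called. Between the wild-type groups it was -0.12 with limma adjusted p = 0.600, where 11.8% were called. Neighbours in the order of the 4 groups, R6/2 M.C with wild-type M.C, wild-type M.C with wild-type Mith, and R6/2 Mith with wild-type Mith, did not differ past the threshold.

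Pdyn, the dynorphin precursor, was lower in R6/2 striatum of the M.C cohort. Its probe set, 1416266_at on chromosome 2, was dim, with a mean of 6.545 that exceeded only 35.9% of probe sets, and a dim probe set can understate a change. In M.C Pdyn read 6.34, 6.35, 6.18 and 6.31 on the R6/2 arrays, against 6.76, 7.09, 6.81 and 6.73 on the wild-type arrays. In Mith it read 6.42, 6.42 and 6.62 on the R6/2 arrays, against 6.45, 6.63 and 6.51 on the wild-type arrays. All 4 R6/2 arrays lay below all 4 wild-type arrays in M.C, a separation that 6.33% of probe sets showed, whereas in Mith the genotypes overlapped.

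In M.C R6/2 Pdyn signal was 68.2% of wild-type, a change of -0.55 ± 0.09 (SE, 95% interval -0.73 to -0.37) with limma adjusted p = 0.00225. In Mith it was 97.2%, a change of -0.04 ± 0.10 (SE, 95% interval -0.25 to 0.17) with limma adjusted p = 0.953, and without wild-type replicate 6 the Mith value was 0.01. The change in M.C minus that in Mith was -0.51 ± 0.13 (limma interaction, unadjusted p = 0.00117), and its adjusted p was 0.293. Over both cohorts the change of -0.33 fell just short of the threshold (limma adjusted p = 0.0537). It passed without R6/2 replicate 7, at -0.38 with limma adjusted p = 0.0322, and without wild-type replicate 5, at -0.37 with limma adjusted p = 0.0243. In the other 12 fits with 1 array left out it did not pass, with limma adjusted p up to 0.118. Without the cohort term limma adjusted p was 0.139.

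As with Penk, the wild-type Pdyn groups stood apart. Mean levels in increasing order were 6.30 ± 0.08 in R6/2 M.C, 6.49 ± 0.11 in R6/2 Mith, 6.53 ± 0.09 in wild-type Mith and 6.85 ± 0.17 in wild-type M.C (SD, n = 4 for M.C and 3 for Mith). Wild-type M.C exceeded wild-type Mith by 0.32 ± 0.09 (limma adjusted p = 0.0342). The other neighbours did not differ past the threshold, with R6/2 M.C minus R6/2 Mith at -0.19 and limma adjusted p = 0.135.

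**Figure D2:**
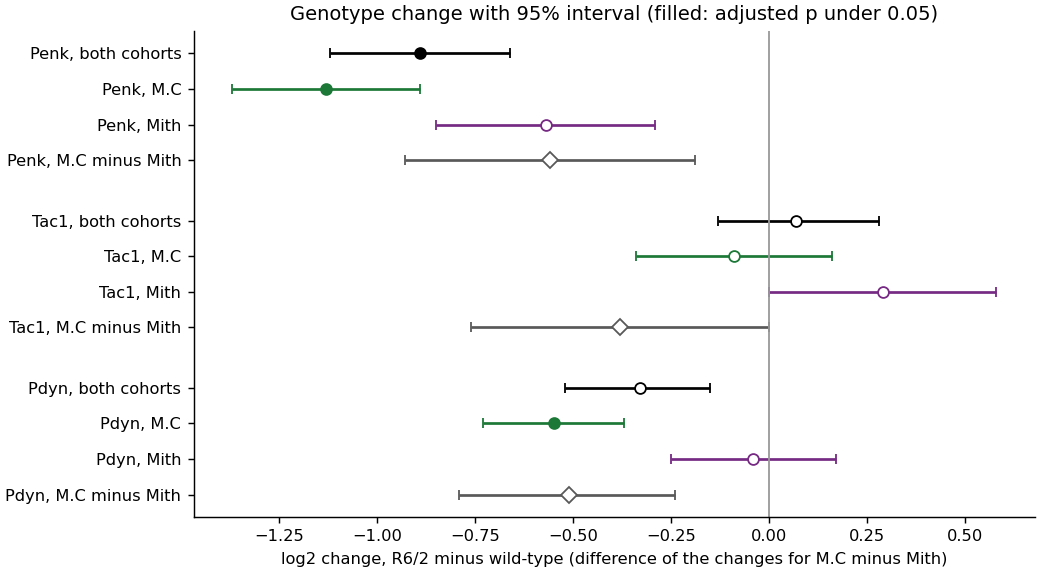
Log2 change of each gene, R6/2 minus wild-type (horizontal axis), with its 95% interval, over both cohorts and in each (circles), and the M.C change minus the Mith change (diamonds), filled where adjusted p was under 0.05. Penk lies below 0 throughout, from -1.13 in M.C to -0.57 in Mith, Pdyn is at -0.55 (M.C) and -0.04 (Mith cohort), and the Tac1 interval spans 0 in M.C and over both cohorts but lies just above 0 in Mith, without passing after adjustment.

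The 3 precursors did not change by the same amount. Differences between probe sets on the same array cannot be moved by the scaling of the array, so these were compared between genotypes by exact two-sided permutation within cohorts, with 1400 arrangements and p adjusted over the 3 pairs. The genes were chosen with results of these arrays known, so these tests are not independent support, and only the change of a difference can be read, since signals of different probe sets are not on 1 scale. Penk minus Tac1 was 0.30 to 0.87 on the R6/2 arrays against 1.33 to 1.83 on the wild-type arrays of M.C. In Mith it was -0.07 to 0.34 on the R6/2 arrays against 0.54 to 1.37 on the wild-type arrays. The genotypes did not overlap in either cohort, and the change of the difference was -0.96 ± 0.15 (SE), exact permutation p = 0.00143, the smallest these arrangements can give, adjusted p = 0.00429. Within cohorts it was -1.04 in M.C (exact p = 0.0286, the smallest possible) and -0.86 in Mith (exact p = 0.10, the smallest possible).

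Penk signal also changed by more than Pdyn signal, with the limit that the dim Pdyn probe set can understate its change. Penk minus Pdyn was 4.28 to 4.86 on the R6/2 arrays against 4.84 to 5.44 on the wild-type arrays of M.C, which overlapped slightly. In Mith it was 4.35 to 4.71 on the R6/2 arrays against 4.89 to 5.20 on the wild-type arrays, with no overlap. The change of the difference was -0.56 ± 0.12 (SE), exact permutation p = 0.00429 and the same after adjustment, and it was -0.58 in M.C (exact p = 0.0857) against -0.53 in Mith (exact p = 0.10). Pdyn minus Tac1, both precursors of the direct pathway, changed by -0.41 ± 0.11 (SE), exact permutation p = 0.00429 and adjusted p = 0.00429, with -0.46 in M.C (exact p = 0.0286) and -0.33 in Mith (exact p = 0.200).

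**Figure D3:**
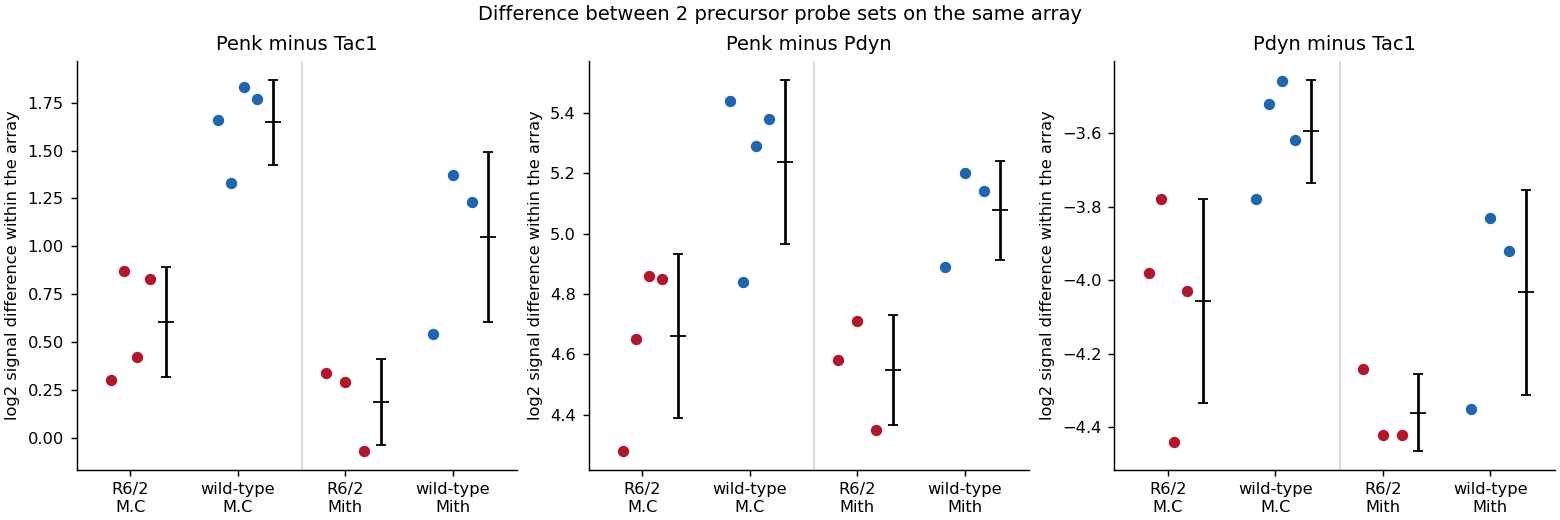
Difference in log2 signal between a pair of precursor probe sets on the same array (vertical axis), for R6/2 (red) and wild-type (blue) arrays of each cohort, with bars for mean and SD. Penk minus Tac1 lies at or under 0.87 on the R6/2 arrays of M.C, where wild-type arrays start at 1.33.

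Within a group of arrays the 3 precursors did not track each other detectably. After the mean of each genotype in each cohort was taken out, Pearson's r over the 14 arrays was -0.29 for Penk with Tac1 (exact within-group permutation p = 0.417, adjusted 0.712 over 3 pairs). It was -0.19 for Penk with Pdyn (exact permutation p = 0.475, adjusted 0.712) and 0.09 for Pdyn with Tac1 (exact permutation p = 0.780). Spearman's rank correlation was -0.13, -0.16 and -0.17 for these pairs in the same order, with exact permutation p = 0.706, 0.593 and 0.589, each 0.706 when adjusted. Without the 2 arrays farthest from the median r was -0.19, -0.36 and -0.48, so that the sign of the last pair rested on those arrays.

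The genes most like each precursor were found by Pearson's r over the 14 arrays among 12091 genes, after each cohort was centred, as a description with no test. The arrays share tissue and genotype groups. For Penk they were Ryr1 (0.982), an intracellular calcium release channel, Rgs4 (0.977), a regulator of G protein signalling, Gabrd (0.976), the delta subunit of GABA-A receptors, Acy1 (0.976), an aminoacylase, and Coch (0.965), the extracellular protein cochlin. Each of these 5 was lower in R6/2, and Acy1 changed least, by -0.23 ± 0.05 (limma adjusted p = 0.0184). The genotype difference was left in these values, so a like gene's change follows in part from its choice and is no separate result. By the same measure r was 0.776 for Penk with Pdyn and -0.109 for Penk with Tac1.

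For Tac1 the most alike were Arhgef3 (0.911), Prss12 (0.867), the serine protease neurotrypsin, Mbip (0.852), Tnpo1 (0.825), a nuclear import receptor, and Zmiz1 (0.808). None of these 5 passed the limma test of genotype, with changes from 0.01 to 0.06, which again follows in part from the choice. For Pdyn they were Zmym1 (0.850), Pkig (0.849), an inhibitor of protein kinase A, Foxo1 (0.848), a forkhead transcription factor, Dio2 (0.843), which activates thyroid hormone, and Ddost (0.841), a subunit of the oligosaccharyltransferase. Of these, Foxo1 (-0.46, limma adjusted p = 0.00563) and Dio2 (-0.43, limma adjusted p = 0.0383) passed the test of genotype, with the same limit.

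With the mean of each genotype also taken out, Acy1 stood first for Penk (0.942) and Arhgef3 first for Tac1 (0.889), followed for Penk by Hemgn, Rhot2, Agap1 and Prmt6, and for Tac1 by Mbip, Tbr1, Prss12 and Rtbdn. For Pdyn none of the 5 named above stayed among the first 5, which were Chek2 (0.889), Pitx1, Dnaaf4, Rbpms and Vmn1r41. Several of these were dim, such as Vmn1r41 at a mean of 4.55 and Tbr1 at 3.65.

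**Figure D4:**
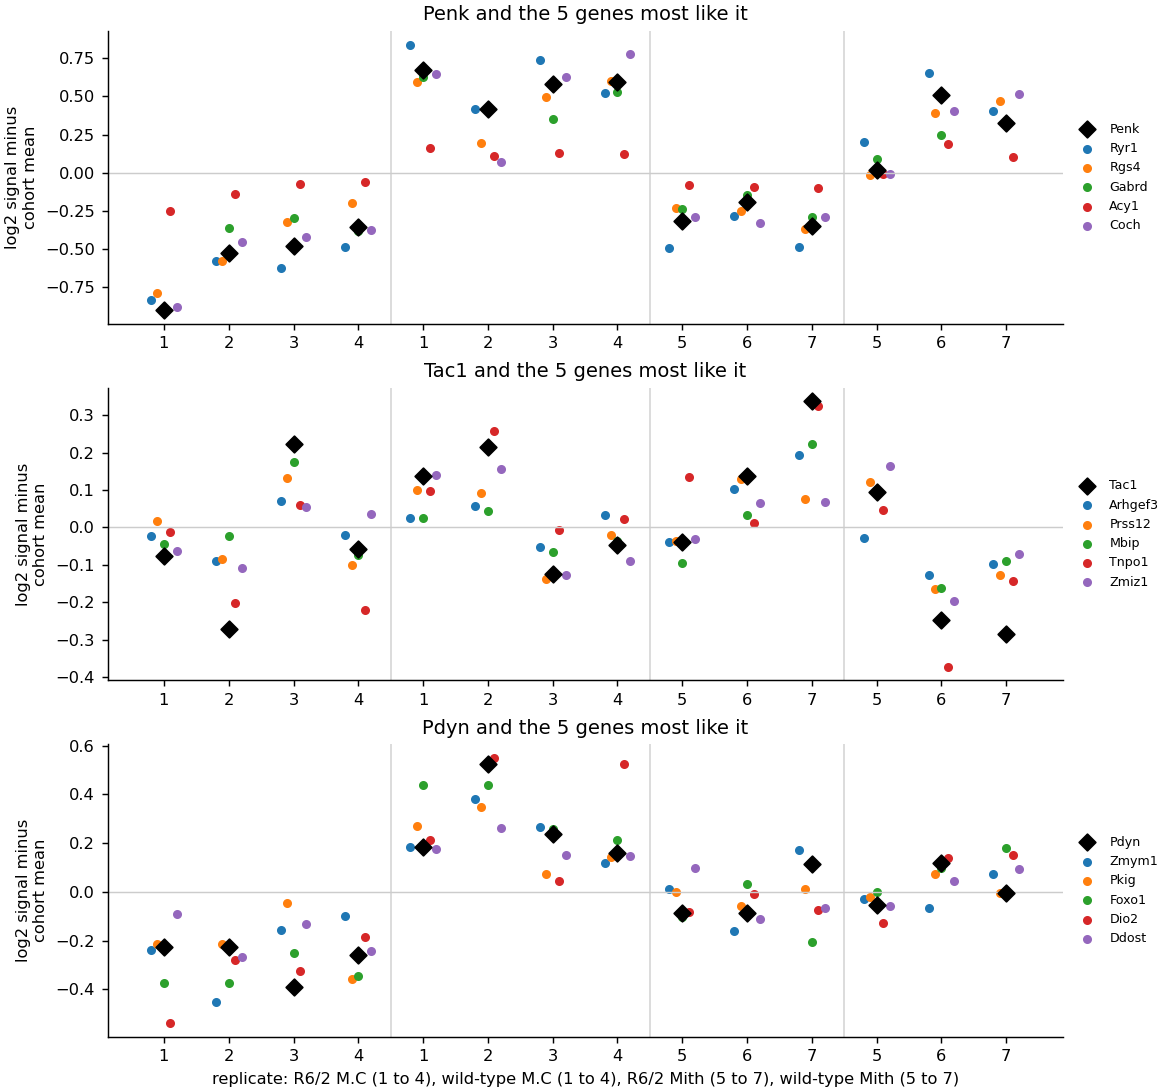
Log2 signal minus the cohort mean (vertical axis) of each precursor (black diamonds) and the 5 genes most like it (coloured points) on each of the 14 arrays (horizontal axis, by group). The points of Ryr1, Rgs4, Gabrd and Coch lie near those of Penk on most arrays, while Acy1 follows a similar order over a narrower range.

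Genes of the machinery around the precursors were called at a share near that of all genes. Over 6 lists of peptide genes, 72 of 79 genes were measured, of which 1 was lower and 0 higher in R6/2 (limma), with a median change of -0.03. Over all 12393 genes 2.07% were lower and 0.468% higher, with a median of 0.01, so the share of these lists was near the background. Some listed probe sets were dimmer than that of Pdyn, such as those of Oprd1 (mean 6.23) and Creb1 (mean 5.28). A dim probe set can understate a change, so a gene not called may still have changed. Among 20 other neuropeptide precursors Sst, the somatostatin precursor of a class of interneurons, was the 1 called, at 80.5% of wild-type (-0.31 ± 0.07, limma adjusted p = 0.0295). Sst was at -0.47 in the M.C cohort and at -0.11 in the Mith cohort. Npy (-0.17), Cck (-0.31) and the nociceptin precursor Pnoc (-0.05), the last a relative of Penk and Pdyn, did not pass, and the list's median was -0.09.

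Receptors of the released peptides did not pass the test. Of 8 measured receptor genes 0 were called and the median was 0.01. The mu, delta and kappa opioid receptors Oprm1, Oprd1 and Oprk1 were at 0.10, 0.00 and -0.11, and the neurokinin receptors Tacr1 and Tacr3 at 0.08 and 0.01. Of 13 measured genes that process precursors 0 were called, with a median of 0.01. Pcsk1, a prohormone convertase, was at 0.08, Cpe, the carboxypeptidase that trims the products, at -0.10, and Pam, which amidates peptides such as substance P, at 0.01. Pcsk2 was not analysed here.

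Dense core granule genes (9 measured, median -0.10) and peptide breakdown genes (12 measured, median 0.00) held no called gene. For the granule genes the M.C cohort gave a median of -0.28, and Mith one of -0.02. Of 10 measured regulators of precursor transcription 0 were called, with a median of -0.08. Creb1 was at -0.02. Atf2, a transcription factor that binds such elements, was at -0.32 with limma adjusted p = 0.0761, and 1 of its 3 other probe sets, which ran from -0.37 to -0.14, was called; it was named after its values were seen. Kcnip3, the repressor of prodynorphin transcription known as DREAM, was at -0.13 with limma adjusted p = 0.333, and its other probe set, at -0.29, was called.

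Markers of the projection neurons themselves moved in part with Penk. Of 9 measured genes shared by projection neurons of both pathways 7 were lower, among them Rasd2 (-0.82), Arpp21 (-0.84; its other probe sets ran from -1.03 to 0.02) and Ppp1r1b (-0.80), the dopamine signalling relay DARPP-32, with a list median of -0.80. Mean levels of 10.29 for Ppp1r1b and 9.23 for Drd2 showed that defining striatal transcripts were present in the tissue. Both measured indirect-pathway genes were lower, Drd2, the D2 receptor, at -0.56 and Plxdc1 at -0.29. Among all 12393 genes 2.07% were called lower. Of 6 measured direct-pathway genes 0 were called, with a median of -0.01. Ebf1, Eya1, Chrm4 and Zfp521 among them were dim (means of 4.98, 5.96, 6.69 and 6.75), and a dim probe set can understate a change. Isl1 (8.03) and Sfxn1 (9.37) were brighter. Drd1, the D1 receptor, and Slc35d3 of the direct list were not analysed here, nor were Adora2a, Gpr6, Gpr52 and Sp9 of the indirect list. The summed signal of the shared markers was 7520 to 10242 on the R6/2 arrays and 9607 to 16904 on the wild-type arrays. Its lowest wild-type value, 9607, was on wild-type replicate 5, which was also the wild-type array with the lowest Penk. The part of projection neuron content in the precursor changes was not tested.

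**Figure D5:**
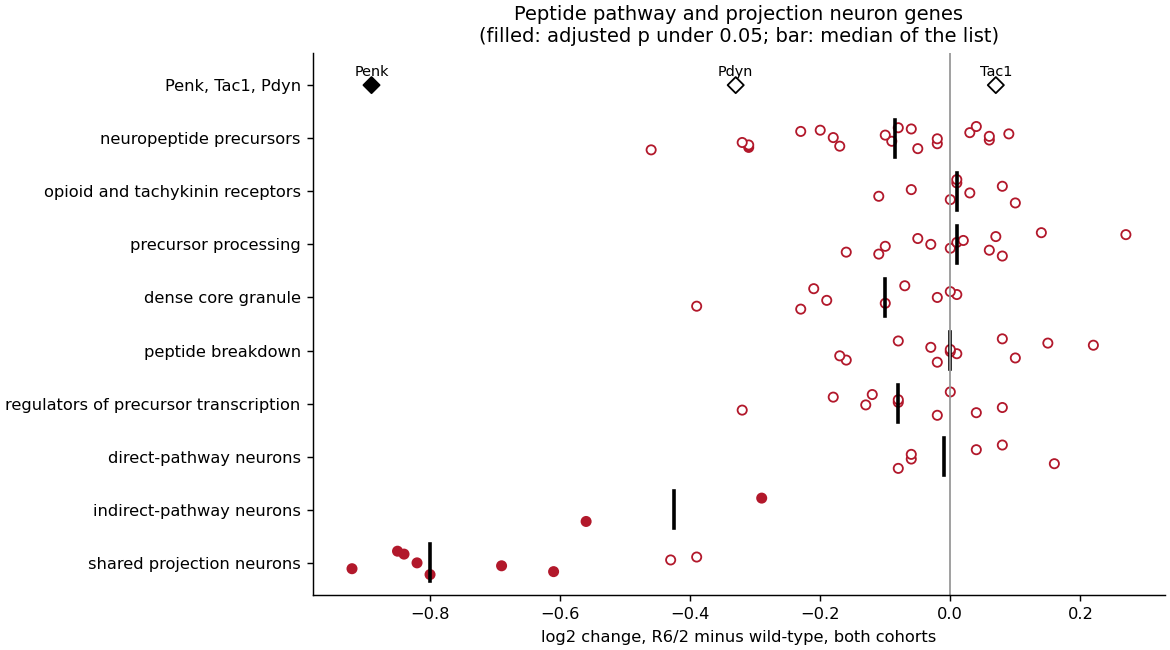
Log2 change, R6/2 minus wild-type over both cohorts (horizontal axis), of Penk, Tac1 and Pdyn (diamonds) and of the genes of each list (circles), filled where adjusted p was under 0.05. Penk lies among the shared projection neuron genes (median -0.80), while lists of peptide genes centre between -0.10 and 0.01.

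Other cell types and RNA quality also moved with genotype or cohort. The counts called lower below stand against 2.07% of all 12393 genes. Of 8 measured oligodendrocyte genes 5 were lower, among them Ugt8a (-0.79), Cldn11 (-0.68) and Mobp (-0.58), and the summed signal in Mith was 16723 to 19199 on the R6/2 arrays against 20281 to 22803 on the wild-type arrays. In M.C these sums overlapped, at 11280 to 13578 on the R6/2 arrays against 12243 to 17458 on the wild-type arrays. Of 10 interneuron genes 3 were lower, Slc18a3 (-0.35), Nos1 (-0.32) and Sst. The other probe set of Nos1, at -0.13, was not called, and Slc18a3 was dim (mean 6.65). Summed thalamic markers, of which 0 of 8 were called, were 2288 to 3257 on the R6/2 arrays against 3249 to 5487 on the wild-type arrays of Mith, and 1618 to 2374 on the R6/2 arrays against 1747 to 2188 on the wild-type arrays of M.C. Tcf7l2, a thalamic gene named after its values were seen, had 1 other probe set that was called. Of 8 astrocyte genes 0 were called by their brightest probe set, yet their median was -0.29, and Aqp4, Slc1a3, Gja1 and Glul each had at least 1 other probe set that was called; these too were named after their values were seen. Summed astrocyte signal in M.C was 4845 to 6051 on the R6/2 arrays against 6627 to 7956 on the wild-type arrays, with no overlap, and in Mith 5746 to 6899 on the R6/2 arrays against 6028 to 8281 on the wild-type arrays. The part of these cell types in the precursor changes was not tested. By their brightest probe sets 0 genes were called among cortical, hypothalamic and septal, choroid plexus, microglia or vessel markers, and the choroid plexus gene Ttr was at -0.20 ± 0.74. RNA integrity, read as 3′ minus 5′ signal of Actb control probe sets, averaged 0.608 ± 0.180 on R6/2 arrays and 0.373 ± 0.143 on wild-type arrays (SD, n = 7 each). The same measure from Gapdh control probe sets averaged 0.337 ± 0.193 on R6/2 and 0.053 ± 0.063 on wild-type arrays of M.C (SD). In Mith it averaged 0.058 ± 0.078 on R6/2 and -0.01 ± 0.063 on wild-type arrays (SD). Only the Actb difference was used as a covariate. With the Actb difference as a covariate Penk over both cohorts was at -0.79 ± 0.14 (limma adjusted p = 0.0372). Pdyn over both cohorts was at -0.31 ± 0.12 and did not pass (limma adjusted p = 0.316). The M.C changes of Penk (-1.04) and Pdyn (-0.54) passed with limma adjusted p = 0.00269 and 0.0186. In that fit 1 of the 7 shared projection neuron genes was still called lower, Rasd2 (limma adjusted p = 0.0465). The counts called lower were 0 of 2 for the indirect pathway, 0 of 10 for interneurons and 2 of 8 for oligodendrocytes. Of all probe sets 56 were called, against 578 without the covariate. Changes were -0.37 ± 0.09 for Sst, -0.44 ± 0.14 for Drd2 and -0.64 ± 0.17 for Ppp1r1b (SE), with limma adjusted p of 0.127, 0.228 and 0.137. Without the covariate they were -0.31 ± 0.07, -0.56 ± 0.11 and -0.80 ± 0.13. List medians were -0.31 for interneurons and -0.41 for oligodendrocytes, against -0.28 and -0.32 without the covariate. For indirect-pathway and shared genes they were -0.36 and -0.58, against -0.42 and -0.80.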

How the data were processed

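The authors deposited log2 signals of 22690 probe sets on 14 arrays; the unit was read from the values (2.96 to 14.52, none missing). The authors' summarisation and normalization are not given in the sources used here. Of the probe sets, 64 were controls and not tested. Array medians spanned 0.108, above the 0.1 set as a limit, so arrays were centred on a common median. Symbols came from the platform's table, updated by gene ID (20351 of 20380 matched); the probe set with the highest mean stood for a gene in a list.

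limma 3.58.1 (R 4.3.3) was fitted to 22626 probe sets with genotype and cohort as terms, and with the 4 genotype-by-cohort groups for changes within cohorts and their interaction, two-sided, Benjamini-Hochberg adjusted. Exact permutations used numpy 2.4.6. The fit was tested on simulated data. The members and the 19 gene lists were chosen with earlier results of these data known. Genes named by rule are the members, the 5 genes most like each, called peptide genes, up to 3 called genes of each other list and a fixed set. That set holds receptors, enzymes, precursors and a few other genes. Outside the rule, the measured direct-pathway genes and the list genes not analysed here were named. So were the genes marked in the text as named after their values were seen. The coordinates are those of RefSeq. The number of arrays limits the precision.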

Additional observations from a re-analysis of the deposited data

Results flagged for a closer look

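Penk on R6/2 replicate 1, at 10.62, lay further below the other 6 R6/2 arrays than their spread allows by Dixon's test (gap over range 0.652, critical value 0.568 for 7 arrays). Within its own cohort it was not marked (0.693, critical value 0.829 for 4 arrays). The next lowest R6/2 array, in the Mith cohort, was at 10.98. Dixon's test was run on 12 groups of arrays for the 3 precursors and marks about 1 group in 20 by chance. Without this array the M.C change of Penk was -1.02 and the change over both cohorts -0.81, each still past the threshold. The summed signal of shared projection neuron markers was also lowest on this array, at 7520, but nearly as low on R6/2 replicate 2, at 7555, where Penk was at 11. By the markers' mean log2 deviation from their average over arrays replicate 2 was the lowest (-0.59, against -0.55 on replicate 1). The cause was not tested.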

How the results depend on the processing

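Of 103 alternative values other than leaving out an array, 95 kept their direction and side of the threshold (counts within 1.5 times), as did 212 of 224 with 1 array left out. Some of these values could hardly differ. The stricter threshold uses the same fit, and leaving out an array of 1 cohort cannot move the estimated change in the other. A result that had not passed also counted as kept however far it weakened. The 2 tallies are therefore no measure of how firm the results are. The number of probe sets called over both cohorts, 578, was 100 without the cohort term, 56 with the Actb 3′ minus 5′ covariate, 1333 with array weights and 131 at an adjusted p under 0.01; with 1 array left out it ran from 280 to 879. It was 295, 384 and 341 without R6/2 replicates 1, 3 and 7, and 370, 280, 295, 879 and 310 without wild-type replicates 1, 3, 4, 5 and 7. Pdyn over both cohorts passed with trended and robust variances (-0.33, limma adjusted p = 0.0463) and with array weights (-0.40, limma adjusted p = 0.0113). It was further from passing with the Actb covariate (-0.31, limma adjusted p = 0.316) and without the cohort term (-0.33, limma adjusted p = 0.139). With 1 array left out Pdyn over both cohorts ran from -0.38 to -0.27. Tac1 in M.C was 0.06 after quantile normalization. The peptide lists' 1 called gene, Sst, became 0 with the Actb covariate. With 1 array left out, Penk in Mith ran from -0.70 to -0.46 and Pdyn in Mith from -0.11 to 0.01. The causes were not tested. Pdyn had no value among probe sets above the median mean, since its own is dimmer, and the mean over a gene's probe sets changes nothing with 1 probe set per gene. No paired analysis was possible because the labels give no replicate numbers shared between genotypes; the numbers used here follow the order of the record and only name arrays.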

Other observations

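Of 8 striosome and matrix genes, which mark the compartments in which striatal peptides are unevenly spread, 1 was lower in R6/2 striatum: Id4, at 71.9% of wild-type (-0.48 ± 0.12, limma adjusted p = 0.0434). Its 2 other probe sets, at -0.67 and -0.58, were called too. With the Actb 3′ minus 5′ covariate the adjusted p of Id4 was 0.250. The list had a median change of -0.08, and over all 12393 genes 2.07% were called lower. Among the genes that process precursors the highest change was that of Qpct, the glutaminyl cyclase that caps peptides, at 0.27 ± 0.08 with limma adjusted p = 0.0996, and it was named after its value was seen.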
